A study of Mus musculus with 12 samples.

Results

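The mitochondrial ribosomal protein genes are the nuclear genes with Mrpl or Mrps symbols. They were taken as the protein-coding genes whose mouse symbol, found through the Ensembl identifier, is Mrpl or Mrps followed by a number and at most 1 letter. This rule gave 77 of the 28689 genes in the expression table, 48 with Mrpl and 29 with Mrps symbols. Mrpl53 also meets the rule and was not analysed here. Of the 77 genes, 76 reached at least 1 FPKM (fragments divided by gene length in kilobases and by library size) in at least 6 of the 12 libraries and were tested, and Mrpl33 did not.

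Mitochondria carry a ribosome of their own, which translates the few mRNAs encoded by mitochondrial DNA into core subunits of the respiratory chain and ATP synthase. Its rRNAs come from mitochondrial DNA, but its proteins are encoded in the nucleus, translated in the cytosol and imported. Many of these proteins descend from bacterial ribosomal proteins, and others were added in the mitochondrial lineage.

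RNA was measured in cultured endothelial cells from mouse lung (MLECs), isolated with beads first against CD31 and then against intercellular adhesion molecule 2. The dKO group is 6 libraries from VE-CAD-CreERT2+/Sp1 fl/fl/Sp3 fl/fl mice, in which tamoxifen starts deletion of Sp1 and Sp3 in cells that use the VE-cadherin promoter. The CTR group is 6 libraries from littermates with both floxed genes but no Cre, labelled WT, which received tamoxifen as well. The mice were male and 6 to 8 weeks old, an age given for the animals as a whole and not for each isolation. Neither the number of mice behind a library nor whether libraries came from separate mice is given, so p-values measure the spread between libraries. Sp1 and Sp3 are zinc-finger transcription factors that bind GC-rich promoter elements such as the GC box.

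Sp1 lay between 19.4 and 23.7 FPKM in CTR and between 8.42 and 12.1 FPKM in dKO libraries, without overlap (log2 fold change −0.95, adjusted p = 5.68e-06, limma). Sp3 lay between 24.2 and 31.1 FPKM in CTR and between 22.5 and 26.9 FPKM in dKO libraries, and only 2 of the 6 dKO libraries were below all CTR libraries (log2 fold change −0.14, adjusted p = 0.0902). Sp3 passed the test when rescaled to TPM (adjusted p = 0.0496) and without CTR replicate 6 (0.0328), and its log2 fold change was 0.01 with length and GC trends removed. The check of the knockout label therefore rests mainly on Sp1. The libraries held between 15523054 and 17938286 fragments on genes. All 10 endothelial markers were measured above 1 FPKM; their summed level was 187 to 303 FPKM in CTR and 353 to 475 FPKM in dKO libraries. The same sums were 738 to 1297 against 2387 to 5276 FPKM for 10 macrophage markers and 2178 to 2763 against 865 to 1704 FPKM for 10 fibroblast markers. The fibroblast sum consists mostly of Col1a1, Col1a2 and Col3a1. Of 9 tested fibroblast markers 5 were lower, Dcn was higher (6.82 and 17.8 FPKM, log2 fold change 1.33, adjusted p = 0.00033), and Pdgfra, Tcf21 and Postn missed the threshold. Sums of 8 proliferation markers were 62.5 to 205 against 50.4 to 73.4 FPKM. For 6 mesothelial markers they were 23.9 to 33.6 against 60.9 to 139 FPKM, and for 8 of 10 leukocyte markers 5.35 to 9.14 against 15.9 to 30.4 FPKM. Lung epithelial markers overlapped between the groups, at 91.4 to 531 against 157 to 375 FPKM. The labels' extraction text speaks of retinas, and all 8 retina markers with a value stayed under 0.33 FPKM in every library. Markers of several other cell types moved with the genotype, their part in the results below was not tested, and in such bulk samples fewer cells of a type and less RNA per cell cannot be told apart.

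For 59 of the 76 tested members the 95% interval of the fold change, in FPKM + 1, lay within 1.5-fold in both directions. The members that passed the test included both lower and higher genes. Of the 76 tested members, 33 (43.4%) had an adjusted p under 0.05, against 53.1% of all 12467 tested genes. Of these, 24 members (31.6%) were lower in dKO MLECs, against 32.6% of all genes, and 9 members (11.8%) were higher, against 20.4% of all genes. The lower share was thus near the background and the higher share below it. Only Mrps23, Mrpl34 and Mrps21, 3 members or 3.95%, also differed by more than 1.5-fold, against 17.9% of all genes. The dKO and CTR libraries did not overlap for 12 members (15.8%), against 27.4% of all genes, with dKO lower for 8 and higher for 4. The median log2 fold change was −0.14 over the members and −0.10 over all tested genes. All fold changes here were computed after adding 1 to each FPKM, so they are too small for genes with low values.

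The split between higher and lower members depended on how libraries were scaled. With median-of-ratios scaling, 15 members were higher and 17 lower, and 3176 genes were higher and 3061 lower over the whole table, where the FPKM values gave 2549 and 4065. With the libraries' trends on gene length and GC content removed, 12 members were higher and 20 lower. The member median stayed below 0 in every alternative, between −0.20 and −0.06. So did the median over all tested genes, between −0.15 and −0.01.

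The small-subunit gene Mrps23 (ENSMUSG00000023723; GRCm39 chromosome 11, 88095176 to 88102345, + strand) changed most. It encodes a protein that bacterial ribosomes lack. It ranged from 6.40 to 14.9 FPKM in CTR libraries, with a median of 12.9 FPKM, and from 2.56 to 5.25 FPKM in dKO libraries, with a median of 4.35 FPKM. CTR replicate 6 was the lowest control, at 6.40 FPKM, and still above each dKO library. The dKO mean was 34.8% of the CTR mean (log2 fold change −1.30, standard error 0.19, adjusted p = 0.000101, limma). In order of level, the gene stood at place 36 of the 77 members in CTR and at place 67 in dKO MLECs.

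Mrpl23 (chromosome 7, 142086423 to 142094486, + strand) encodes the counterpart of a bacterial protein at the opening of the peptide exit tunnel. It lay between 7.23 and 10.6 FPKM in CTR and between 4.78 and 6.46 FPKM in dKO libraries (log2 fold change −0.51, adjusted p = 0.000323). Its processed pseudogene Mrpl23-ps1 matches it over 540 bases at 100% identity and was itself at 4.02 FPKM in CTR and 2.95 FPKM in dKO MLECs, so reads from the shared stretch cannot be assigned to either. Mrpl24 (chromosome 3, 87826798 to 87832192, + strand), also of bacterial descent, lay between 22.2 and 31.5 FPKM in CTR and between 16.8 and 20.3 FPKM in dKO libraries (log2 fold change −0.49, adjusted p = 0.000472). Mrpl58 (chromosome 11, 115294556 to 115303502, + strand) encodes a peptidyl-tRNA hydrolase that is built into the large subunit and releases peptides from stalled ribosomes. It lay between 6.13 and 6.93 FPKM in CTR and between 3.96 and 5.57 FPKM in dKO libraries (log2 fold change −0.46, adjusted p = 0.00031). For these 3 genes no dKO library reached the lowest CTR library.

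The other members that were lower without overlap were Mrps17, Mrps35, Mrpl41 and Mrps16. Mrps17, a small-subunit protein of bacterial descent that binds rRNA, lay between 8.19 and 9.97 FPKM in CTR and between 5.81 and 6.85 FPKM in dKO libraries (log2 fold change −0.41, adjusted p = 0.000141). Mrps35, a mitochondria-specific small-subunit protein, lay between 2.49 and 3.07 FPKM and between 1.40 and 2.31 FPKM (log2 fold change −0.39, adjusted p = 0.00218). Mrpl41, a mitochondria-specific large-subunit protein, lay between 25.1 and 33.5 FPKM and between 19.7 and 23.3 FPKM (log2 fold change −0.38, adjusted p = 0.000819). Mrps16, of bacterial descent, had the smallest fall of the group, from between 9.61 and 10.9 FPKM to between 7.54 and 8.96 FPKM (log2 fold change −0.29, adjusted p = 0.00135).

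Mrpl34 (ENSMUSG00000034880; chromosome 8, 71917555 to 71918396, + strand), the counterpart of a short bacterial large-subunit protein, rose most. It ranged from 22.6 to 40.7 FPKM in CTR libraries, with a median of 30.7 FPKM, and from 43.6 to 62.4 FPKM in dKO libraries, with a median of 48.6 FPKM (log2 fold change 0.74, standard error 0.13, adjusted p = 0.000523). It was the 4th most abundant member per length in CTR MLECs and the first in dKO MLECs. Mrps21 (chromosome 3, 95766069 to 95778879, − strand), a small-subunit protein of bacterial descent, lay between 21.9 and 33.0 FPKM in CTR and between 40.4 and 54.9 FPKM in dKO libraries (log2 fold change 0.69, adjusted p = 0.000283). In both genes the dKO replicates 1 and 6 were highest and CTR replicate 6 was lowest.

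Mrpl43 (chromosome 19, 44988010 to 44995671, − strand), a mitochondria-specific large-subunit protein, lay between 18.7 and 22.2 FPKM in CTR and between 26.6 and 34.1 FPKM in dKO libraries (log2 fold change 0.51, adjusted p = 0.000116). Mrpl51 (chromosome 6, 125168764 to 125173232, + strand), likewise mitochondria-specific, lay between 7.86 and 9.84 FPKM and between 10.1 and 14.7 FPKM (log2 fold change 0.38, adjusted p = 0.00282). All 12 kept an adjusted p under 0.05 in each of the 23 alternative analyses in which they were tested, which their choice for complete separation of the libraries favours; Mrps35 was not tested under a filter of at least 5 FPKM.

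**Figure D1:**
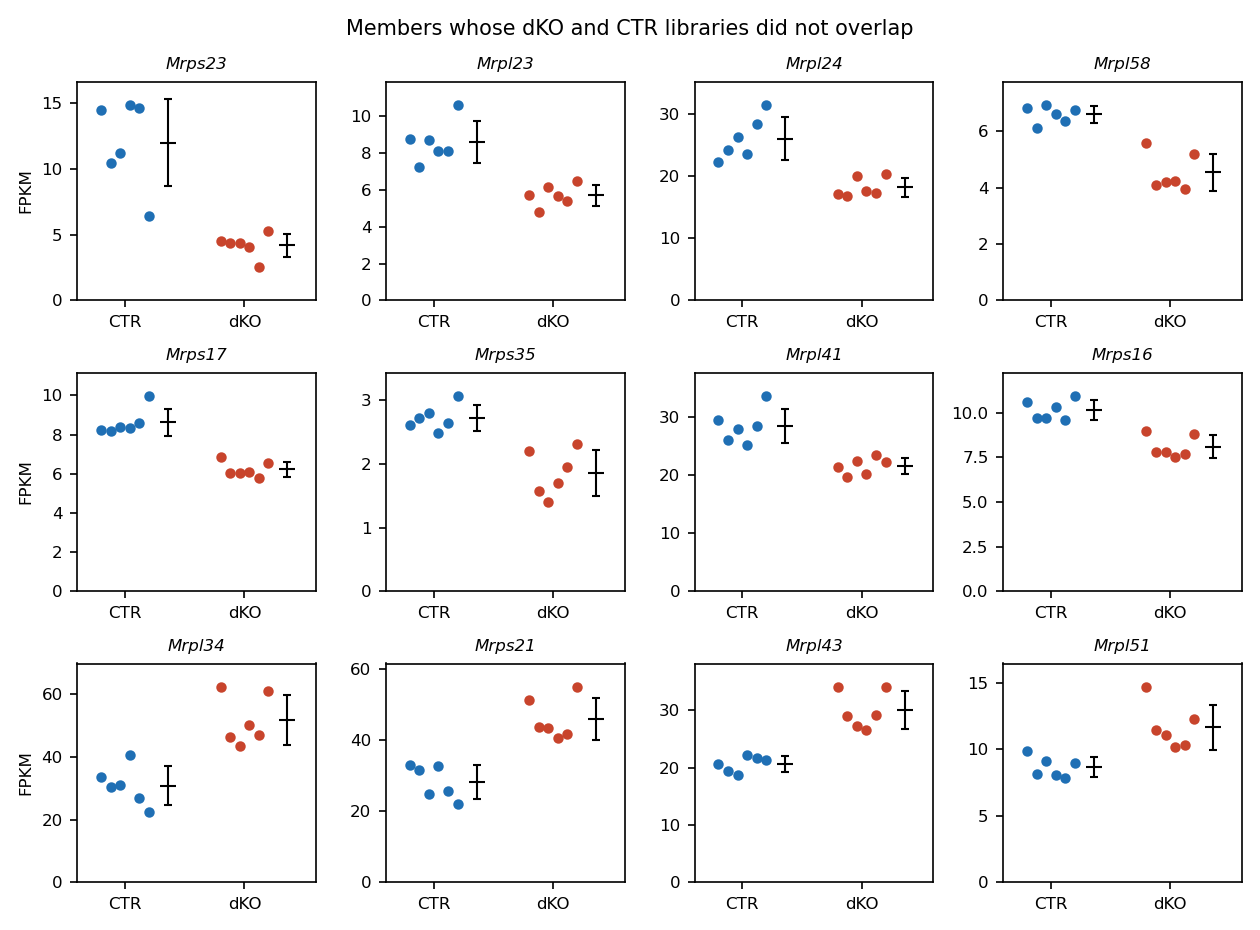
FPKM (linear axes from 0) of the 12 members without overlap, 8 lower and 4 higher in dKO MLECs; each point is a library, in replicate order, and the bar beside each group is the mean ± SD (n = 6). In Mrps23 the CTR libraries spread from 6.40 to 14.9 FPKM, all above the highest dKO library at 5.25 FPKM.

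To relate these genes to the factors deleted, 5 promoter motifs were searched on both strands from 250 bases before to 50 after the start of the canonical transcript in the annotation: the GC box GGGCGG, the ETS core CCGGAA, the NRF1 core GCATGCG, the CCAAT box, and the TATA box, TATAAA. The GT box, which the paper also names as an element of Sp1 and Sp3, was not searched. A GC box was present in 33 of 77 members (42.9%), against 59.6% of the 11315 tested protein-coding genes. The ETS core, bound by factors such as Gabpa, was present in 35 members (45.5%), against 25.5% of those genes. The NRF1 core stood in 9.09% against 6.35%, CCAAT in 33.8% against 39.4% and the TATA box in 10.4% against 7.80%. Members thus held the GC box less often and the ETS core more often than the other promoters, as a description of these windows without a test. Of the 24 lower members, 9 (37.5%) held a GC box, and so did 5 of the 9 higher members (55.6%) and 19 of the 43 that did not pass the test (44.2%). Over all tested protein-coding genes these shares were 60.0% of the lower, 56.6% of the higher and 60.7% of those that did not pass. A link between GC box and direction was not tested. In the 100 bases before the start, the share with a GC box was 31.2% of members against 41.0% of tested genes.

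The 100 bases before the canonical start of Mrps23, Mrpl23 and Mrpl34 are shown because these genes are among the largest falls and rises and their stretches hold no protein-coding exon (GRCm39, 5′ to 3′ on the strand of the gene). The canonical start of Mrpl23 lies inside the gene span given for it, which begins with another transcript. Capitals mark a GC box or an ETS core.
Mrps23, chr11:88095076-88095175: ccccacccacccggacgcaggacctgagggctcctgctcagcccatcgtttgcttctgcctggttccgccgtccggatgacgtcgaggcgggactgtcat
Mrpl23, chr7:142086649-142086748: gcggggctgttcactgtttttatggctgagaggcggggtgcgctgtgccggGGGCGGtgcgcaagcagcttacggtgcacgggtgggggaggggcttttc
Mrpl34, chr8:71917455-71917554: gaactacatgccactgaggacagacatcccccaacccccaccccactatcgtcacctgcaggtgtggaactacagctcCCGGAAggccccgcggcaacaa
The stretch of Mrps23, the largest fall, held neither set of letters, that of Mrpl23 held 1 GC box, and that of Mrpl34, the largest rise, held 1 ETS core and no GC box. A match is a run of letters and not a site shown to be bound. A stretch without a GC box can still hold a GT box, which was not searched.

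The remaining 21 members past the test changed less or overlapped between the groups. The 16 lower ones had log2 fold changes between −0.49 (Mrpl50) and −0.20 (Mrpl48), and also comprised Mrpl15, Mrpl32, Mrps2, Mrps28, Mrpl3, Mrpl2, Mrps9, Mrpl44, Mrpl16, Mrps5, Mrpl54, Mrpl9, Mrps31 and Mrps26. The 5 higher ones were Mrpl18 (0.46), Mrps14 (0.46), Mrpl20 (0.40), Mrpl11 (0.29) and Mrpl42 (0.26). Of the 43 members that missed the threshold, 40 had a 95% interval of the log2 fold change wholly within 1.5-fold in both directions. The exceptions were Mrps22, Mrps27 and Mrpl35. These intervals are on the log2(FPKM + 1) scale. For members with low values, such as Mrps18c, they do not exclude a change in FPKM of more than 1.5-fold.

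**Figure D2:**
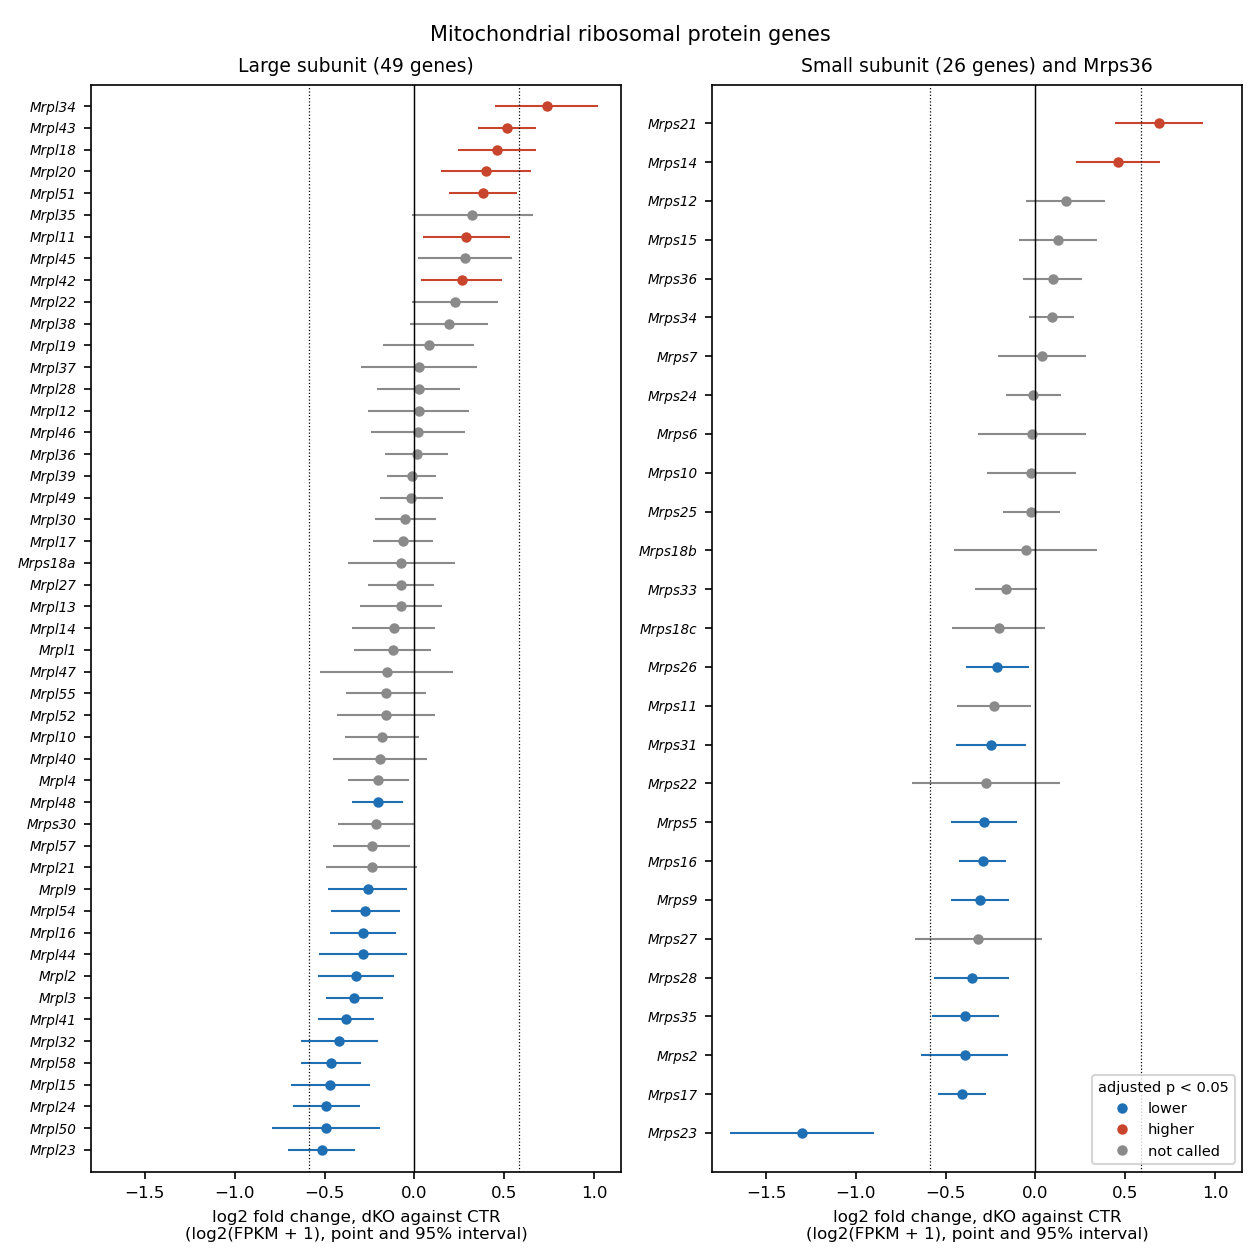
Log2 fold change of the 76 tested members (points) with 95% intervals, large subunit on the left, small subunit and Mrps36 on the right. Dotted lines mark 1.5-fold in FPKM + 1. Mrps23 at −1.30 stands apart on the low side, and most intervals lie between the dotted lines.

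By place in the ribosome, 21 of 49 tested large-subunit genes (42.9%) passed the test, against 53.1% of all genes. Of the 49, 7 (14.3%) were higher and 14 (28.6%) lower, against 20.4% and 32.6% of all genes. Their median log2 fold change was −0.11. Of 26 small-subunit genes 12 (46.2%) passed, 2 (7.69%) higher and 10 (38.5%) lower, with a median of −0.21. The difference between the subunits was not tested. Genes with a bacterial counterpart gave 6 higher and 14 lower of 45, and mitochondria-specific ones 3 higher and 10 lower of 30. Both directions occurred in each of these classes, and the difference by origin was not tested either. Within the small subunit, 4 of the 10 mitochondria-specific genes were lower and 0 higher.

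The members spanned a wide range of levels. Among those tested, Mrpl2 (45.4 ± 5.69 FPKM, SD, n = 6), Mrpl52 (34.1 ± 5.38) and Mrpl54 (31.9 ± 2.80) were the most abundant per length in CTR MLECs. In dKO MLECs Mrpl2, a protein near the peptidyl transferase centre, was at 36.1 ± 4.78 FPKM (log2 fold change −0.33, adjusted p = 0.0142). Mrpl52 was at 30.6 ± 6.05 FPKM (−0.16, adjusted p = 0.306) and Mrpl54 at 26.4 ± 3.48 FPKM (−0.27, adjusted p = 0.0196; 0.0723 with median-of-ratios scaling). The lowest tested members in CTR MLECs were Mrps18c (2.21 ± 0.443), Mrps25 (2.60 ± 0.195) and Mrps35 (2.72 ± 0.201). Mrps25 was at 2.55 ± 0.338 FPKM in dKO MLECs (log2 fold change −0.02, adjusted p = 0.80). In the annotation used here, its exons overlap those of Nr2c2 on the opposite strand over 6493 bases, and Nr2c2 fell from 2.98 to 2.22 FPKM. Mrpl33, which the filter left out, lay between 0.977 and 1.39 FPKM in CTR and between 0.589 and 0.826 FPKM in dKO libraries. Across the 77 members the order of levels was much alike in both genotypes (Spearman 0.95 between group means, over genes, which are not independent replicates).

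Members named for a known place or role gave the following values. The 3 Mrps18 genes are paralogues of 1 bacterial small-subunit protein, and the product of Mrps18a sits in the large subunit. In the counts by origin above, Mrps18a and Mrps18b were classed as mitochondria-specific. Mrps18c was classed there as having a bacterial counterpart. Mrps18a was at 9.65 ± 1.999 FPKM in CTR and 9.12 ± 1.92 FPKM in dKO MLECs (log2 fold change −0.07, 95% interval −0.37 to 0.23). Mrps18b was at 8.79 ± 2.44 and 8.45 ± 2.57 FPKM (−0.05, interval −0.45 to 0.34), and Mrps18c at 2.21 ± 0.443 and 1.79 ± 0.414 FPKM (−0.20, interval −0.46 to 0.05). None of the 3 passed the test, and the signs of Mrps18a and Mrps18b changed with median-of-ratios scaling. In the annotation used here, Mrps18c overlaps Abraxas1 on the opposite strand over 3197 bases, and Abraxas1 fell from 5.46 to 2.13 FPKM. The length of Mrps18c recovered from the FPKM values was 1076 bases, so how much of that stretch was counted is not known.

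Mrps30, a large-subunit protein in spite of its symbol, was at 2.999 ± 0.344 FPKM in CTR and 2.47 ± 0.527 FPKM in dKO MLECs (log2 fold change −0.21, adjusted p = 0.0897; 0.0204 without dKO replicate 1). Mrpl12, the stalk protein that receives translation factors, was at 14.3 ± 2.58 and 14.5 ± 2.52 FPKM (0.02, interval −0.26 to 0.30). Mrps36, now known as a component of the 2-oxoglutarate dehydrogenase complex rather than of the ribosome, was at 15.9 ± 1.21 and 17.1 ± 1.83 FPKM (0.10, adjusted p = 0.30). The adjusted p of these 3 genes missed 0.05.

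The members varied together between libraries of the same group. Over 2850 pairs of tested members, the median correlation of within-group deviations on the log2 scale was 0.61. Of the pairs 91.6% were positive, and all share the same 12 libraries. No such value was computed for other genes, so it cannot be called particular to the members. The summed FPKM of the 77 members was 1072 ± 73.7 in CTR and 1050 ± 139 (SD, n = 6 each) in dKO libraries. The sums ranged from 992 to 1172 in CTR and from 921 to 1279 in dKO. The highest sum was that of dKO replicate 1, the library with the fewest fragments, which was the highest of its group for 54 of the 76 tested members; CTR replicate 6 was the highest of its group for 39. Without dKO replicate 1, 41 members passed the test, 7 higher and 34 lower; without CTR replicate 6, 27 passed, 7 higher and 20 lower.

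**Figure D3:**
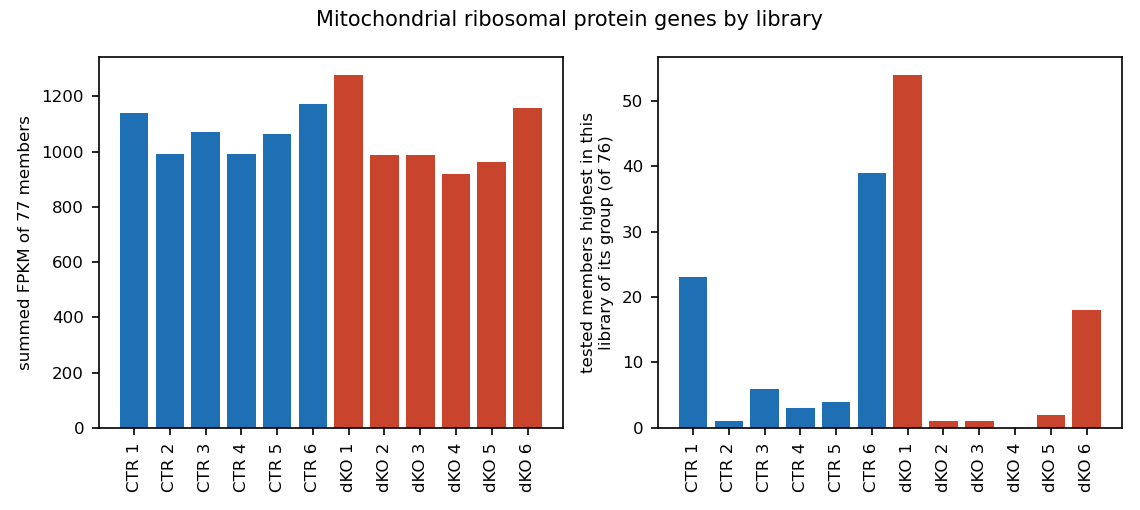
Summed FPKM of the 77 members (left) and number of tested members for which a library is the highest of its group (right), for each CTR (blue) and dKO (red) library. The sums overlap between genotypes, from 992 to 1172 in CTR and from 921 to 1279 in dKO, and dKO replicate 1 is highest in its group for 54 members.

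Many members lie head to head with a neighbouring gene. For 22 of the 76 tested members (28.9%) another protein-coding gene starts within 1000 bases on the opposite strand, facing away or with starts overlapping by at most 250 bases, against 10.05% of tested protein-coding genes. The partner was tested in 20 cases, which count Mrpl46 with Mrps11 from both sides. The member passed the test in 6 pairs, and both genes did in 3. Among single genes, 43.4% of tested members and 53.1% of all tested genes passed. Mrpl43 rose while Twnk, the mitochondrial DNA helicase with a start 56 bases away, fell from 8.13 to 5.59 FPKM (log2 fold change −0.47, adjusted p = 0.0017). Mrpl51 rose while Ncapd2, a condensin subunit with a start 44 bases away, fell from 12.8 to 6.81 FPKM (−0.72, adjusted p = 0.0159). Mrpl50 and Zfp189 both fell, Zfp189 from 3.02 to 2.46 FPKM. These 3 pairs held both equal and opposite directions, and a link between neighbours was not tested.

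**Figure D4:**
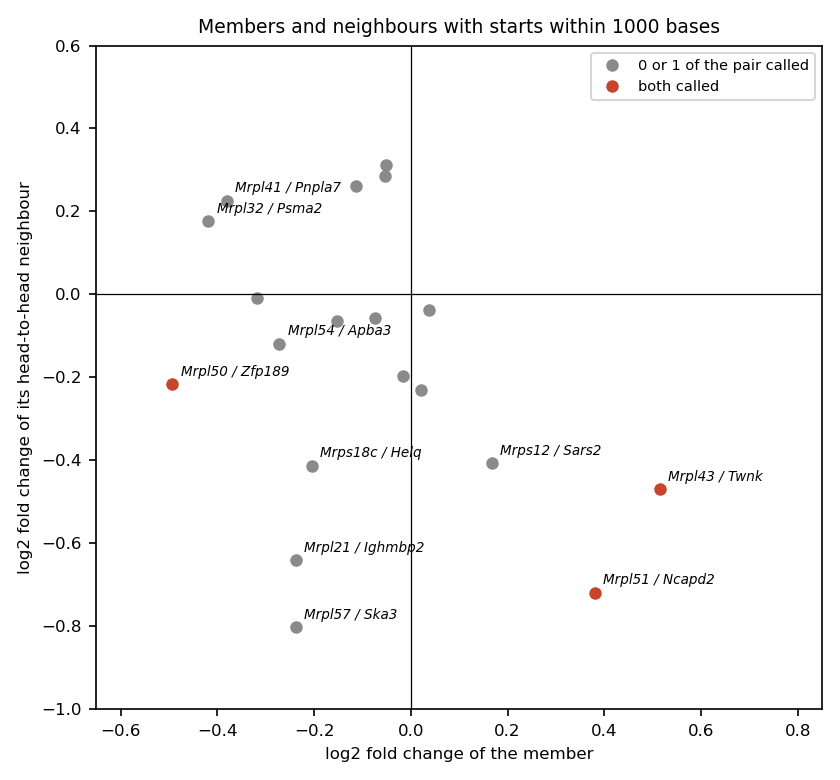
Log2 fold change (dKO against CTR) of members (horizontal) and of their head-to-head neighbours (vertical), 19 pairs, since Mrpl46 and Mrps11 are neighbours of each other and drawn once; red marks the 3 pairs with both genes past the test. Mrpl43 with Twnk and Mrpl51 with Ncapd2 lie in the lower right, higher for the member and lower for the neighbour.

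In the annotation used here, exons of 33 members overlap exons of another tested gene on the opposite strand. Those of Mrps24 and Mrps6 overlap one on the same strand. Gene lengths recovered from the FPKM values were shorter than the annotated exons for many members. They were 1213 bases for Mrpl43, 888 for Mrpl41 and 1122 for Mrpl16, less than shared stretches given below. How much of each stretch was counted is therefore not known. Whether counting used strand is not stated, and without it reads counted in a stretch shared by both genes cannot be told apart. Among the 12 members without overlap between genotypes, the shared exon stretches were 2005 bases for Mrpl24 with Mettl25b (2.51 FPKM in CTR, 1.90 in dKO), 1524 bases for Mrpl41 with Dph7 (6.56 and 4.13), 1264 bases for Mrpl43 with Twnk and 317 bases for Mrpl51 with Ncapd2. Mettl25b and Dph7 fell as their members did, whereas Twnk and Ncapd2 fell where their members rose. Mrpl43 also shares 1181 bases with Sema4g (0.949 and 1.14 FPKM, log2 fold change 0.14, adjusted p = 0.272), and Mrpl41 shares 13 bases with Pnpla7 (4.92 and 6.02 FPKM, 0.23, adjusted p = 0.255). Mrps23, Mrpl34 and Mrps21 share no exon with another tested gene. Mrpl34 does match Gm64263, a long noncoding RNA gene at the same locus without a value here, over 383 bases at 100% identity. Among the other members past the test, Mrpl18, which rose, overlaps Tcp1, which fell from 54.9 to 39.0 FPKM, over 442 bases. Mrps14, also higher, overlaps Cacybp (40.7 and 31.2 FPKM) over 1290 bases. Of lower members, Mrpl44 overlaps Wdfy1, which rose from 2.97 to 12.6 FPKM, over 126 bases. Mrpl16 overlaps Stx3 (5.19 and 6.69 FPKM) over 1376 bases and Mrpl2 overlaps Klc4 (8.50 and 13.8 FPKM) over 295 bases. Mrpl48 overlaps Rab6a (36.8 and 36.7 FPKM) over 736 bases.

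Other mitoribosomal proteins carry symbols outside the rule. Of the 5 listed, Aurkaip1 rose from 29.1 ± 2.17 to 34.8 ± 3.86 FPKM (log2 fold change 0.25, adjusted p = 0.0171). Gadd45gip1 (5.17 and 4.13 FPKM, −0.26, adjusted p = 0.0509), Ptcd3 (7.20 and 6.11 FPKM, −0.25, adjusted p = 0.203), Chchd1 (38.6 and 33.9 FPKM, −0.20, adjusted p = 0.282) and Dap3 (8.97 and 8.55 FPKM, −0.06, adjusted p = 0.534) missed the threshold. Gadd45gip1 passed it in 6 of 23 alternatives, with adjusted p values over all of them from 0.006784 to 0.1905. Ptcd3 and Chchd1 passed only without dKO replicate 1, where 4 of 5 did.

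Genes that build and run the mitoribosome moved in 1 direction where they passed the test on the FPKM values. Over all tested genes, 32.6% were lower and 20.4% higher, with a median of −0.10. Of 26 tested assembly factors, 15 (57.7%) were lower and 0 higher, and their median log2 fold change was −0.26. The largest fall was that of Nsun4, which methylates the small-subunit rRNA, from 4.94 ± 0.625 to 2.64 ± 0.232 FPKM (−0.70, adjusted p = 1.53e-05). Gtpbp6, Mterf3, Mtg1, Mettl15, Rbfa and Ngrn also fell without overlap. The groups did not overlap for 7 of the 26 assembly factors (26.9%), near the 27.4% of all tested genes. Of 15 translation factors, 9 (60.0%) were lower and 0 higher (median −0.25). Guf1, the mitochondrial relative of the bacterial back-translocase, fell from 3.34 ± 0.152 to 1.71 ± 0.0923 FPKM (−0.68, adjusted p = 1.64e-06), whereas Tufm, the elongation factor that delivers tRNAs, was at 34.8 and 36.2 FPKM (0.04, adjusted p = 0.797). Of 17 mitochondrial aminoacyl-tRNA synthetases, 10 (58.8%) were lower and 0 higher (median −0.27); this count was 6 without any 1 of dKO replicates 2 to 6. Rars2, the arginyl-tRNA synthetase, fell from 13.0 ± 1.81 to 7.58 ± 0.896 FPKM (−0.70, adjusted p = 7.58e-05). With median-of-ratios scaling, the lower counts of these lists were 10, 8 and 6, and 1 assembly factor and 1 synthetase were higher.

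All 10 tested genes of mitochondrial DNA maintenance and transcription were lower, against 32.6% of all genes (median log2 fold change −0.43), with 0 higher in every alternative; 9 or 10 were lower when 1 library was left out, 8 with length and GC trends removed, and 6 under a filter of at least 5 FPKM, which tested fewer of them. They include Polg2, the accessory subunit of the mitochondrial DNA polymerase (1.64 ± 0.315 and 0.769 ± 0.133 FPKM, −0.57, adjusted p = 0.000233), Tfam, which packages mitochondrial DNA (8.62 and 6.02 FPKM, −0.45), and the RNA polymerase Polrmt (7.80 and 5.67 FPKM, −0.40). Among 10 tested regulators of nuclear mitochondrial genes, 6 were lower and 1 higher; over the alternatives 4 to 6 were lower and 1 or 2 higher, with 4 and 2 under median-of-ratios scaling and with no filter. Creb1 (6.14 ± 0.397 and 4.37 ± 0.528 FPKM, −0.42, adjusted p = 0.000523) and the ETS factor Gabpa (18.3 and 13.7 FPKM, −0.40, adjusted p = 0.00051) fell, and the nuclear receptor Esrra rose (11.9 ± 0.667 and 16.0 ± 1.68 FPKM, 0.40, adjusted p = 0.000404). Nrf1 was at 3.24 and 3.65 FPKM (0.13, adjusted p = 0.258).

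Among the RNA products of mitochondrial DNA, both rRNAs were higher: mt-Rnr1, of the small subunit, was at 136 ± 15.9 FPKM in CTR and 227 ± 25.4 FPKM in dKO MLECs (log2 fold change 0.74, adjusted p = 3.75e-05), and mt-Rnr2, of the large subunit, at 182 ± 27.4 and 223 ± 19.3 FPKM (0.31, adjusted p = 0.0232). The call of mt-Rnr2 was lost without CTR replicate 5 (adjusted p = 0.05315) and with quantile normalization (0.169). Of 12 tested mitochondrial mRNAs, mt-Nd2 (661 and 834 FPKM, 0.33, adjusted p = 0.00334) and mt-Nd6 were higher, mt-Co3 was lower (23.5 and 18.1 FPKM, −0.36, adjusted p = 0.00177) and 9 missed the threshold. Of these mRNAs 16.7% were thus higher and 8.33% lower, against 20.4% and 32.6% of all tested genes. The counts of mitochondrial mRNAs depended on the processing. They were 8 higher and 0 lower when length and GC trends were removed, and 0 higher and 2 lower after quantile normalization. Over all tested genes, removing the trends gave 3174 higher and 3100 lower of 12376. Quantile normalization gave 2830 higher and 3460 lower of 12467. Levels between mitochondrial genes cannot be compared, since the nuclear genome holds copies of them and reads were kept by unique alignment.

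Cytosolic ribosomal protein genes and the nuclear genes of oxidative phosphorylation are the families most alike in function, and the median of the members lay between theirs. Of 77 tested cytosolic ribosomal protein genes, 65 (84.4%) were lower and 1 higher (median log2 fold change −0.35). Of 79 tested nuclear genes of oxidative phosphorylation, 9 (11.4%) were lower and 26 (32.9%) higher (median 0.10). With median-of-ratios scaling the medians were −0.26 for the cytosolic ribosome, −0.06 for the members and 0.18 for oxidative phosphorylation, in the same order. Over all genes 32.6% were lower and 20.4% higher, and the differences between families were not tested.

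**Figure D5:**
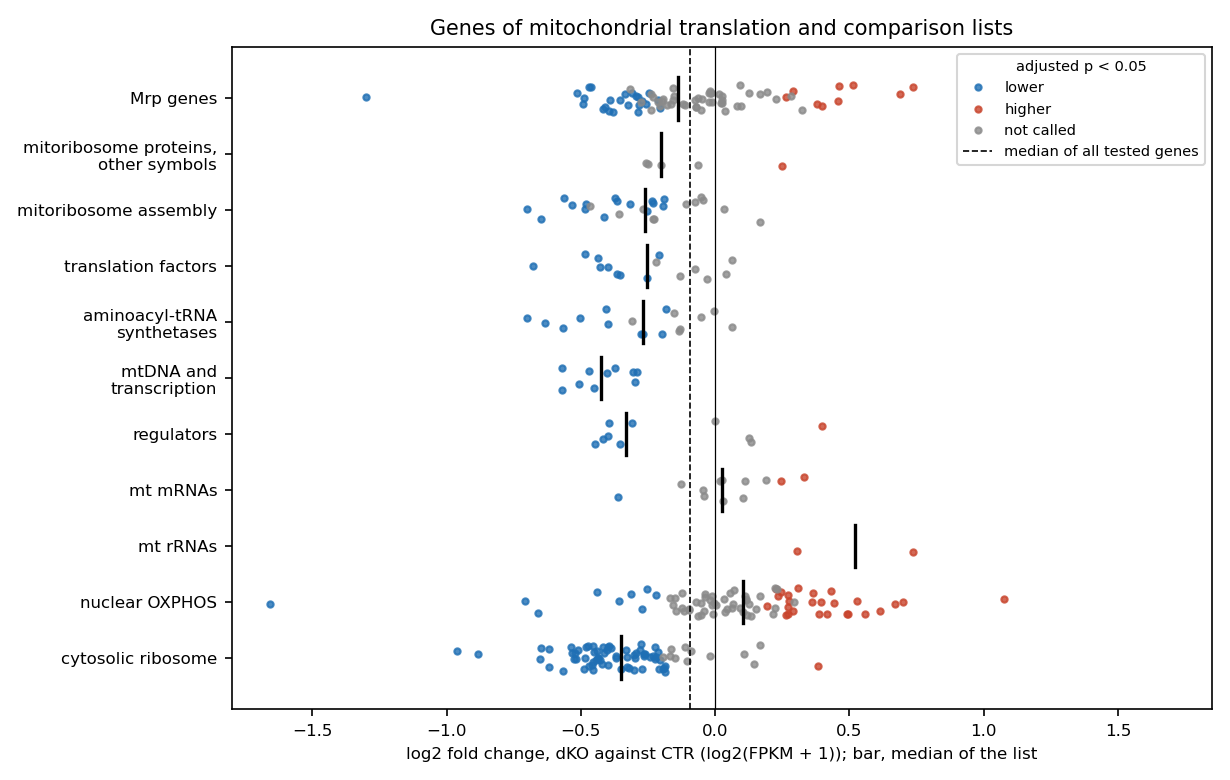
Log2 fold change (dKO against CTR) of each tested gene in the members and 10 comparison lists; colours give the test, black bars the median of each list and the dashed line the median of all tested genes (−0.10). The members spread to both sides around −0.14, while the 10 mitochondrial DNA and transcription genes all lie below 0 and the cytosolic ribosome centres at −0.35.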

How the data were processed

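Total RNA of MLECs was sequenced in 6 CTR and 6 dKO libraries. The authors used FastQC and Trimmomatic, mapped the reads with STAR on mm39, kept unique alignments and mapped these once more; the submitters' processing notes also name HISAT2 2.1.0, Bowtie2 2.2.3, TopHat2 and DESeq2, without roles. The deposited values are FPKM per gene, and the counting program, annotation and use of strand are not given in the sources used here. Unique alignment lowers values of genes with near-identical copies, and FPKM rests on gene lengths that differ from the annotation used here. Columns named after tamoxifen were matched to dKO through the labels.

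Of 28689 genes, 27706 were matched by Ensembl identifier to GENCODE on GRCm39, the assembly named mm39. Values were tested as log2(FPKM + 1) with limma 3.58.1 in R 4.3.3 (eBayes with a trend, no covariate, Benjamini-Hochberg over 12467 genes). Exact permutation p-values are not given, since the genes shown in full were chosen for libraries that do not overlap, which fixes them. Fragments were recovered by seeking, for each gene, the shortest length at which all its FPKM values gave whole fragments (tolerance 0.01). Such a length was found for all 28689 genes, and the recovered fragments summed to within 0.013% of the library totals. As an alternative, limma-voom on recovered fragments made 32 calls among members and 6609 over all genes. Replicate libraries differed beyond sampling noise. Copies were sought with BLAST 2.17.0 at 95% identity over at least 150 bases. Other steps used Python 3.11.15, pandas 2.3.3, NumPy 2.4.6, pysam 0.24.0 and Matplotlib 3.10.9. The recovery of fragments and the main limma fit were also run on simulated data.

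Named genes are members without overlap (8 largest falls and rises), the 3 highest and 3 lowest, those under the filter, 7 members with a known role, and the extremes of each list; Tufm, Tfam, Polrmt, Gabpa, Nrf1, mt-Nd6, neighbours and members otherwise listed were chosen after their values were seen. The members and lists were chosen with earlier results of these data known. The replicate number did not pair libraries.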

Additional observations from a re-analysis of the deposited data

Results flagged for a closer look

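Among the named genes and the summed level of the members, 82 groups of 6 values were looked at for a library far from the others, and 8 had one; chance alone gives about 1 in 20 groups, or 4.1. In CTR, Mrps17 was at 9.97 FPKM in replicate 6 (others 8.19 to 8.61), Mrps25 at 2.97 FPKM in replicate 1 (others 2.37 to 2.59) and Mrps36 at 13.6 FPKM in replicate 5 (others 15.8 to 16.9). Also in CTR, mt-Nd2 was at 597.9 FPKM in replicate 6 (others 656 to 692) and mt-Rnr1 at 165 FPKM in replicate 1 (others 121 to 138). In dKO, all of these libraries were replicate 1: Mrpl52 was at 42.4 FPKM (others 25.8 to 30.8), Ptcd3 at 10.6 FPKM (others 4.02 to 5.91) and Esrra at 19.2 FPKM (others 14.5 to 16.1).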

How the results depend on the processing

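Across 23 alternatives, the counts of called, higher, lower and over 1.5-fold members, of calls pooled over the pathway lists and of called named members stayed within 1.5 times their values except as follows. A stricter call rule on the same fit, requiring more than 1.5-fold, left 3 members; median-of-ratios scaling gave 15 higher members in place of 9; a filter of at least 5 FPKM left 30 of 57 calls in the pathway lists, since it tested fewer genes; and, as another window and not another fit, the 100 bases before the start held a GC box in 31.2% of members in place of 42.9%. Single lists moved more: called synthetases fell from 10 to 6 with no filter, with quantile normalization and without any 1 of dKO replicates 2 to 6; called mitochondrial mRNAs rose from 3 to 8 with trends removed; called rRNAs fell from 2 to 1 with quantile normalization and without CTR replicate 5; and called mitoribosomal proteins with other symbols rose from 1 to 2 in 5 alternatives and to 4 without dKO replicate 1. The 5 FPKM filter left 5 assembly factors, 4 translation factors, 4 synthetases and 6 mitochondrial DNA genes called. Leaving out 1 library gave 27 to 41 called members. Of 39 named genes, 25 kept sign and call throughout. Signs reversed in genes that did not pass the test: Mrpl12 was −0.008984 with length and GC trends removed, −0.02336 rescaled to TPM, and between −0.03683 and 0.1105 over the fits that leave out 1 library, and below 0 without CTR replicate 2 or 4 or dKO replicate 1 or 6. Mrps18a was 0.008087 with median-of-ratios scaling and between −0.1601 and 0.002705 over those fits. Mrps18b was 0.02588 with median-of-ratios scaling, 0.01091 with quantile normalization, and between −0.1796 and 0.0548 over those fits. Mrps25 was 0.1036 with trends removed, 0.03993 with median-of-ratios scaling, 0.03596 with quantile normalization, and between −0.06815 and 0.009364 over those fits. Dap3 was 0.01615 with median-of-ratios scaling, and Sp3 0.01407 with trends removed. The causes were not tested. The replicate number as a block gave 39 called members (10 higher, 29 lower); same-numbered libraries had correlations between −0.108 and 0.565 and 2 of 6 correlated best with their own number, so the numbers were not taken as pairs. Tested members had at least 21 fragments in each library.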
